A study of Mus musculus with 15 samples.

Results

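The C9orf72 complex and a set of genes linked to amyotrophic lateral sclerosis (ALS) were followed in mouse trigeminal ganglion (TG), the ganglion that holds the cell bodies of the corneal sensory nerves. The set was given by name and held 9 genes of the 55573 in the count table: C9orf72, Smcr8 and Wdr41, which encode the complex, and Sod1, Tardbp, Optn, Tbk1, Sqstm1 and Ubqln2. The RNA came from the TG of 10-week-old male CD1 mice whose right cornea had been injured with a 2-mm trephine, with removal of the epithelium and the front of the stroma. All animals carried the injury, and no uninjured TG entered these comparisons. The eye was then treated topically 3 times per day for 12 days with vehicle (5 TG), with resolvin D6 (RvD6, called RvD6-standard in the labels, 5 TG) or with its stereoisomer RvD6si (RvD6-isomer, 5 TG), and the TG of the injured side was taken. Resolvin D6 is a lipid mediator made from docosahexaenoic acid, and RvD6si was isolated from mouse tears and corneal culture medium. The doses of both compounds in this experiment were not given in the sources used here, so that values of RvD6 and RvD6si are compared at the same time but not at a known common dose. Each library is called below by its group and its sample number, 1 to 15.

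The protein C9orf72 binds SMCR8 and WDR41 in a stable complex that acts on small GTPases and works at the lysosome and in autophagy, the pathway that carries damaged proteins and organelles to the lysosome. A repeat expansion in the human gene is a frequent inherited cause of ALS and frontotemporal dementia. Several of the other genes act in the same clearance routes: the kinase TBK1 phosphorylates the autophagy receptors optineurin (Optn) and p62 (Sqstm1), and ubiquilin-2 (Ubqln2) carries ubiquitinated proteins to the proteasome. SOD1 is the copper-zinc superoxide dismutase of the cytosol, and Tardbp encodes TDP-43, an RNA-binding protein that aggregates in most ALS.

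Total counts ran from 4125962 to 9903396 per library (median 7756538), and the 9 genes together took 0.113% to 0.165% of them. Libraries of one group differed beyond what counting alone gives, with a chi-square of 11.3 to 49.2 for each degree of freedom. The 9 sensory neuron markers were all detected, with summed levels of 6488 to 7928 CPM (counts scaled to library size) in vehicle, 3571 to 7818 in RvD6 and 5797 to 8319 in RvD6si. Against vehicle, 0 of the 9 neuron markers had a positive log2 fold change in RvD6 and 6 had one in RvD6si. Summed satellite glia markers were lower in every treated TG than in every vehicle TG, with 6551 to 7915 CPM in vehicle, 4755 to 6430 in RvD6 and 4349 to 6317 in RvD6si. Apoe gave most of this sum, with 5923 of 6551 CPM in vehicle 1, so the order of the sum is largely that of Apoe. A positive log2 fold change against vehicle was found for 2 of the 5 markers in RvD6 and for 2 in RvD6si. Of these 5 markers, Glul (-0.68) and Apoe (-0.40) were lower in RvD6si than in vehicle at an unadjusted p below 0.05, in the comparison where C9orf72 and Tbk1 were higher at that level. Summed skeletal muscle markers reached 74.3 to 2183 CPM in RvD6 against 15.3 to 138 in vehicle and 7.48 to 25.5 in RvD6si. Summed pituitary markers spread widely within each group, with 7.35 to 3720 CPM in vehicle, 224 to 2275 in RvD6 and 19.8 to 651 in RvD6si. All 5 markers of red blood cells and all 6 of neutrophil precursors were higher in RvD6 than in vehicle at an unadjusted p below 0.05, and RvD6si 15 stood apart from the other RvD6si libraries, with 11959 CPM of erythroid markers against 935 to 2605 in the rest of its group. In bulk RNA, fewer cells of a type and less RNA per cell cannot be told apart. The part of these markers in the results below was not tested, beyond fits with the neuron or the muscle score as a covariate. Both scores differed between RvD6 and the other groups. In comparisons with RvD6 such fits cannot tell a score's part from that of the treatment. In RvD6si against vehicle 0 of the 5 muscle markers had a positive log2 fold change (median -1.53). The same limit thus holds there for the muscle score. No fit with the satellite glia score was made.

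RefSeq promoter sequences (build GRCm38.p6) were matched for 7 of the 9 genes, C9orf72, Wdr41, Sod1, Tardbp, Optn, Tbk1 and Sqstm1, and were searched over the 250 bases before the start site on both strands. The promoters of C9orf72, Wdr41 and Tbk1 are shown because these genes gave the lowest permutation p-values below, and that of Sod1 because it differed most from them in its motifs. Capitals mark matches to any of 6 motifs: the GC box GGGCGG, the CCAAT box CCAAT, the TATA box TATAAA, the E-box CACGTG bound by factors of lysosomal genes, the core TGACNNNGC of the antioxidant response element, and TGACG, the half-site of the cAMP response element.
C9orf72 (chr4:35225837-35226086, minus strand): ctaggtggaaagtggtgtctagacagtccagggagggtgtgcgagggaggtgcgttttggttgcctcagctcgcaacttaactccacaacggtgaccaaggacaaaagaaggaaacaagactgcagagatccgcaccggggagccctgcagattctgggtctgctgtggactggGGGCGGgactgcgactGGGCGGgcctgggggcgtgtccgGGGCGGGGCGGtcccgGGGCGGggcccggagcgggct
Wdr41 (chr13:94976094-94976343, plus strand): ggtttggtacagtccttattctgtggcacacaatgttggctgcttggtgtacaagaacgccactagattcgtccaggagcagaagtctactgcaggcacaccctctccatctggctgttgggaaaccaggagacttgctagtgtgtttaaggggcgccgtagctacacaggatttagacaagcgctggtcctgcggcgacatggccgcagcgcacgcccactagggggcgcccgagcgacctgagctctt
Tbk1 (chr10:121586795-121587044, minus strand): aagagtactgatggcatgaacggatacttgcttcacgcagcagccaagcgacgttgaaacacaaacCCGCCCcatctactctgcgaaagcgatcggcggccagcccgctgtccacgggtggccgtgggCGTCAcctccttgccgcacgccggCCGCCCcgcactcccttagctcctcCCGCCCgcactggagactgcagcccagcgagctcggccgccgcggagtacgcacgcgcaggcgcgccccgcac
Sod1 (chr16:90220512-90220761, plus strand): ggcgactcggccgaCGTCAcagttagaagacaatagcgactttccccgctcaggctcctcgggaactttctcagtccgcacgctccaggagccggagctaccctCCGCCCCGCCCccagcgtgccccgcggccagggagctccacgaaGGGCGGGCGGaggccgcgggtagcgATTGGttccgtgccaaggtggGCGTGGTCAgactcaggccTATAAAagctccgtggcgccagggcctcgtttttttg

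The GC box was in 6 of the 7 promoters, all but that of Wdr41, against 32.7% of all 32851 promoters of the table. C9orf72 held 5 matches, some of them overlapping each other, Sod1 4, Tbk1 3 and Optn 1. The TATA box (12.4% of all promoters), the CCAAT box (33.8%) and the antioxidant core (10.2%) were each in the Sod1 promoter alone among the 7. TGACG was found in Sod1 and Tbk1 (17.8% of all promoters), and the E-box in none of the 7 (6.02%). The 250-base windows of C9orf72, Tbk1 and Sod1 held 65.6%, 68.4% and 66.4% G and C against a median of 52.4% over all promoters, and that of Wdr41 held 57.2%. The window of C9orf72 lies within the gene as GENCODE annotates it, since the RefSeq start is further inside. These matches describe letters in the window, and no binding was measured.

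The genes differed widely in level. On the RPKM scale (reads scaled to exon length and library size, used here only to compare genes), Sqstm1 was highest at 265 ± 48.3 (SD over the 15 TG), followed by Sod1 at 46.1 ± 7.86 and C9orf72 at 29.2 ± 6.88. Optn (11.8 ± 2.87), Wdr41 (8.09 ± 1.57), Tbk1 (6.95 ± 3.59) and Tardbp (6.80 ± 2.09) came next, and Ubqln2 (3.85 ± 2.03) and Smcr8 (1.93 ± 0.756) were lowest. Between neighbours in this order, the ranges over the 15 TG stayed apart for Sqstm1 over Sod1 and for C9orf72 over Optn, and overlapped for all others. Tbk1 exceeded Tardbp in 8 of the 15 TG, so these neighbours had no order beyond their spread. The level of Sod1 depended on the length used, though its mean stayed second to that of Sqstm1. Its annotated exons add up to 3970 bases because of a transcript that keeps an intron, while its coding transcript has 641 bases. Over that length its RPKM was 285 ± 48.7 against 333 ± 60.6 for Sqstm1 over its longest coding transcript. On that scale the ranges over the 15 TG overlapped, at 206.5 to 372 and 229 to 417, so the order of these genes was not settled. In addition, 72.5% of the Sod1 coding transcript has a near-identical copy in Gm8566 (at least 97% identity over at least 75 bases), so reads of Sod1 may have been left uncounted as multi-mapped and its level is uncertain.

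C9orf72 was the most abundant message of the complex. In RPKM it was 14.8 ± 4.69 times as high as Smcr8 in vehicle, 20.3 ± 12.2 times in RvD6 and 17.3 ± 5.13 times in RvD6si (SD, n = 5 each). Its ratio to Wdr41 was 3.14 ± 1.09 in vehicle, 3.84 ± 0.578 in RvD6 and 3.99 ± 0.462 in RvD6si. The groups overlapped in both ratios. In all 15 TG Smcr8 lay below C9orf72, by a factor of at least 6.45. These ratios rest on annotated exon length and change with the length used. Over the longest coding transcripts mean RPKM was 39.3 ± 9.28 for C9orf72, 15.1 ± 2.94 for Wdr41 and 2.11 ± 0.826 for Smcr8 (SD over the 15 TG).

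With all 15 TG in one model, 0 of the 9 genes passed the adjusted threshold of 0.05 in RvD6si against vehicle, where 0.670% of 16567 genes tested did so (edgeR quasi-likelihood test, Benjamini-Hochberg adjustment over all genes). All 9 genes passed the filter on low counts. At an unadjusted p below 0.05 there were 2 of 9, C9orf72 and Tbk1, both higher, against 8.69% of all genes that were higher at that level, and 0 of 9 were lower (7.30% of all genes). The median log2 fold change of the 9 genes was 0.21, that of all genes 0.02, and 7 of the 9 values were positive. The median over all genes differed with annotated length, from -0.25 for genes under 2 kb to 0.16 for those over 8 kb. The 9 genes have 3344 to 8078 bases, so all genes are not a background of like length. The groups were separate, with no overlap of RvD6si and vehicle values, for 0 of the 9 genes, against 4.88% of all genes. By DESeq2 with all samples 1 of the 9, C9orf72, passed, against 2.83% of 32491 genes with a p-value. The DESeq2 shares here and below include many genes of low counts, which the edgeR filter left out. They are thus not like for like with the edgeR shares or with these 9 genes. By DESeq2 with those groups alone 2 of the 9, C9orf72 and Tbk1, passed (3.22% of genes). With edgeR on genes of at least 10 counts in every sample 1 of 9, C9orf72, passed (2.60% of genes).

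In RvD6 against vehicle, 0 of 9 genes passed the adjusted threshold, as did 0% of all genes, and 1 of 9, Sqstm1, was lower at an unadjusted p below 0.05 (5.99% of all genes) while 0 of 9 were higher (7.63%). The median log2 fold change was -0.0020, against 0.02 for all genes, and no gene of the 9 had separate groups (3.72% of all genes). By DESeq2 0 of 9 passed and 1.14% of all genes did. In RvD6si against RvD6, 0 of 9 passed the adjusted threshold (0.235% of all genes), 2 of 9 (C9orf72 and Tbk1) were higher in RvD6si at an unadjusted p below 0.05 (4.18% of all genes) and 0 lower (4.64%), and 1 of 9, Wdr41, had separate groups (1.74% of all genes). The median was 0.29, against -0.0039 for all genes, and by DESeq2 0 of 9 passed (0.569% of all genes). The comparisons against vehicle share the same 5 control TG, and those with RvD6si the same 5 treated TG.

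**Figure D1:**
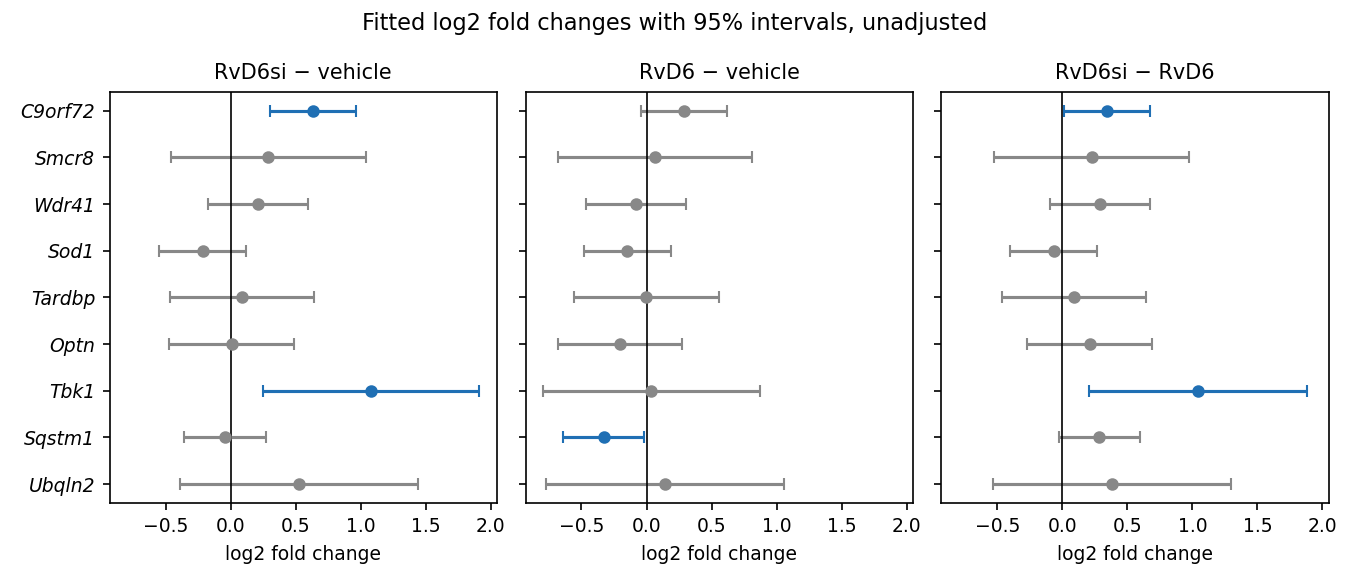
Fitted log2 fold changes (x axis) of the 9 genes in the 3 comparisons, with unadjusted 95% intervals from edgeR; blue marks intervals that do not hold 0. These are C9orf72 and Tbk1 in both comparisons of RvD6si, and Sqstm1 in RvD6 against vehicle.

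C9orf72 (ENSMUSG00000028300.14; GRCm38 chr4:35191285-35226175, minus strand, 12 exon blocks) was higher in RvD6si than in vehicle, in the unadjusted test. Its normalized counts in the 5 vehicle TG were 634, 674, 635, 847 and 1043, for a mean of 766 ± 178. In RvD6 they were 776, 1146, 918, 990 and 897 (946 ± 136), and in RvD6si 1397, 1027, 1236, 1212 and 1079 (1190 ± 145). Of the 5 RvD6si TG, 4 lay above every vehicle TG, and the exception, RvD6si 12 with 1027, lay just below the highest vehicle TG. RvD6 lay between, and overlapped both other groups. The mean was 1.55 times that of vehicle in RvD6si (log2 fold change 0.63, SE 0.157, 95% interval 0.30 to 0.96) and 1.23 times in RvD6 (0.29, SE 0.157). The exact two-sided permutation p was 0.0159 for RvD6si against vehicle, 0.119 for RvD6 against vehicle and 0.0317 for RvD6si against RvD6, where the smallest p that 5 against 5 allows is 0.00794. None of the 27 exact p-values over the 9 genes and 3 comparisons is adjusted.

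The adjusted p of C9orf72 in RvD6si against vehicle depended on the test. It was 0.0640 by edgeR and 0.00468 by DESeq2 with all samples, at nearly the same log2 fold change of 0.64. Over the 15 edgeR fits that left out 1 TG the adjusted p ran from 0.0539 to 0.181 and the log2 fold change from 0.56 to 0.77. The study had singled out C9orf72 on these same TG, so its higher level here is no independent evidence. Genes of 4 to 6 kb in annotated length, such as C9orf72 with 4603 bases, had a median log2 fold change of 0.14 in RvD6si against vehicle, against -0.25 for genes under 2 kb. With each library's trend on gene length removed, that of C9orf72 was 0.51 (edgeR adjusted p = 0.119). The exons share 247 bases, 5.37% of their length, with Gm12367 on the opposite strand, and the counting did not use strand.

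Smcr8 (chr11:60777524-60788287, plus strand), the partner that stabilises C9orf72, spread too widely for a difference to show. Its normalized counts ran from 64.9 to 183 in vehicle (103 ± 49.0), from 45.9 to 186 in RvD6 (108 ± 58.3) and from 97.3 to 152 in RvD6si (126 ± 24.0). Between RvD6si and vehicle the log2 fold change was 0.29, with an interval from -0.46 to 1.04, and the exact permutation p was 0.365. The interval thus allowed both a fall and a rise of up to 1.04 on the log2 scale.

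Wdr41 (chr13:94976344-95023314, plus strand, 16 exon blocks), the subunit that ties the complex to the lysosome, was the only gene of the 9 with groups that did not overlap, in RvD6si against RvD6. Its normalized counts were 303, 308, 319, 291 and 311 in RvD6 and 373, 320, 370, 435 and 366 in RvD6si. Every RvD6si TG was above every RvD6 TG, though RvD6si 12 cleared the highest RvD6 TG only by the margin between 320 and 319. On the TMM-scaled RPKM values that order was lost, since the lowest RvD6si TG had 7.70 and the highest RvD6 TG 7.76. The mean counts were 307 ± 10.4 and 373 ± 40.7, a ratio of 1.22 (exact permutation p = 0.00794, the smallest that 5 against 5 allows). The edgeR fit gave a log2 fold change of 0.29 with SE 0.183 (edgeR adjusted p = 0.692). Vehicle spanned the other groups, with 279, 342, 303, 208 and 473 (321 ± 98.1), and its spread, with a coefficient of variation of 30.6% against 3.39% in RvD6, is part of the shared error of that fit. RvD6si exceeded vehicle by 0.21 on the log2 scale, with an interval from -0.17 to 0.59. With the neuron marker score as a covariate the difference between RvD6si and RvD6 was 0.08, and with the muscle score 0.10. Both scores differed between these groups, so their part cannot be told apart from that of the treatment.

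**Figure D2:**
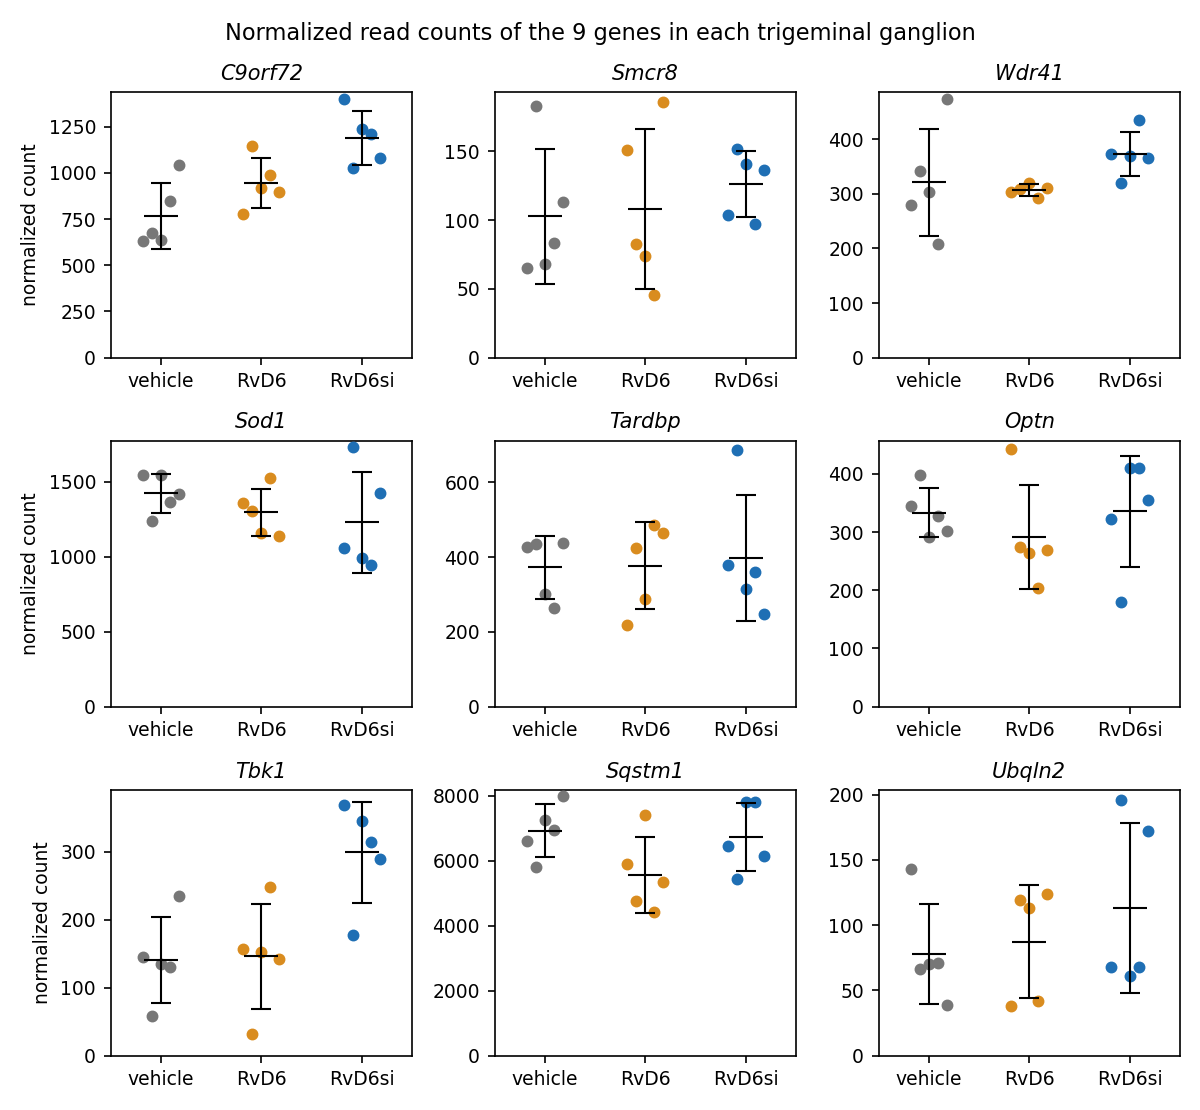
DESeq2-normalized read counts (y axis) of the 9 genes in each TG by treatment, with mean and SD in black (n = 5 per group). C9orf72 and Tbk1 had 4 of 5 RvD6si TG above every vehicle TG, Wdr41 had all 5 RvD6si TG above every RvD6 TG, and the other genes overlapped in every comparison.

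Tbk1 (chr10:121546455-121586787, minus strand, 22 exon blocks), the kinase that phosphorylates optineurin and p62, had the largest fitted difference of the 9 genes. Its normalized counts were 146, 58.7, 135, 130 and 235 in vehicle (141 ± 62.9). They were 157, 31.5, 153, 248 and 142 in RvD6 (146 ± 76.9) and 369, 177, 345, 315 and 289 in RvD6si (299 ± 74.5). In RvD6si 4 of 5 TG lay above all vehicle and all RvD6 TG, and RvD6si 12 again was the exception. The mean in RvD6si was 2.12 times that in vehicle and 2.05 times that in RvD6, with an exact permutation p of 0.0159 for each. The log2 fold change was 1.08 (SE 0.397, interval 0.25 to 1.91) against vehicle and 1.04 (SE 0.398, interval 0.21 to 1.88) against RvD6, with edgeR adjusted p-values of 0.187 and 0.423. RvD6 and vehicle differed by 0.04, with an interval from -0.79 to 0.87, which holds changes of either sign.

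The Tbk1 counts were also among the most variable. The biological coefficient of variation of Tbk1 in the model was 43.1%, and 96.7% of the 1000 genes nearest in level had a smaller one. The lowest TG, RvD6 7 with 31.5 and vehicle 2 with 58.7, lay far below the rest of their groups, although neither passed Dixon's test for a single outlying value. Without RvD6 7, RvD6si against RvD6 was 0.78 on the log2 scale, and without vehicle 2, RvD6si against vehicle was 0.88. With the muscle marker score as a covariate, RvD6 against vehicle was -1.05 and RvD6si against RvD6 2.42 (edgeR adjusted p = 0.579 and 0.594). Summed muscle markers did not overlap between RvD6 (74.3 to 2183 CPM) and RvD6si (7.48 to 25.5 CPM). In that comparison the muscle score and the treatment cannot be told apart. DESeq2 gave an adjusted p of 0.0646 with all samples and 0.0122 with vehicle and RvD6si alone.

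The autophagy receptors that TBK1 phosphorylates had fitted differences near 0 between RvD6si and vehicle. Optn (chr2:5020642-5064051, minus strand, 16 exon blocks) averaged 333 ± 42.1 normalized counts in the vehicle TG, 291 ± 89.6 after RvD6 and 335 ± 94.9 after RvD6si. RvD6si 12 was the lowest of all 15 TG at 180, and RvD6 6 the highest at 443. RvD6si differed from vehicle by 0.0070 on the log2 scale, with an interval from -0.47 to 0.49, and RvD6 by -0.20. Without RvD6si 12 the first value was 0.17.

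Sqstm1 (chr11:50199366-50210827, minus strand, 8 exon blocks), which encodes p62, had the lowest mean in RvD6. The vehicle TG had 6595, 5808, 7263, 6961 and 7998 normalized counts (6925 ± 810). The RvD6 TG had 5911, 4760, 7394, 4420 and 5334 (5564 ± 1170), and the RvD6si TG 6461, 5435, 7814, 7823 and 6146 (6736 ± 1056). Of the RvD6 TG 3 lay below every vehicle TG, while RvD6 8 lay above 4 of them. The log2 fold change of RvD6 against vehicle was -0.33 (SE 0.149, interval -0.64 to -0.02, edgeR adjusted p = 0.344, exact permutation p = 0.0794), and that of RvD6si against vehicle was -0.04. With the neuron marker score as a covariate the value for RvD6 was 0.0067. The neuron markers were themselves lower in RvD6, with 0 of 9 positive against vehicle, so their part and that of the treatment cannot be told apart. Without RvD6 8 the log2 fold change of RvD6 against vehicle, with no covariate, was -0.46. The exons of Sqstm1 share 580 bases, 17.3% of their length, with Mrnip on the opposite strand.

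Sod1 (chr16:90220754-90226329, plus strand), the superoxide dismutase, averaged 1424 ± 131 normalized counts in the vehicle TG, 1298 ± 158 after RvD6 and 1231 ± 338 after RvD6si. The RvD6si group spanned the others, since 3 of its TG lay below every vehicle TG and RvD6si 12, at 1731, lay above all. The log2 fold change was -0.22 for RvD6si (interval -0.55 to 0.12) and -0.15 for RvD6 (interval -0.48 to 0.19). Without RvD6si 12 the former was -0.37 (edgeR adjusted p = 0.214).

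Tardbp (chr4:148612382-148627019, minus strand), the TDP-43 gene, had nearly equal means of 373 ± 84.0, 377 ± 117 and 398 ± 169 in vehicle, RvD6 and RvD6si. The highest of all 15 TG was RvD6si 12 at 687, and without it RvD6si against vehicle turned from 0.09 to -0.20 on the log2 scale. Its exons share 1817 bases, 23.3% of their length, with Masp2 on the opposite strand, which had 24 counts over all 15 TG. Ubqln2 (chrX:153498227-153501570, plus strand, 1 exon), the ubiquilin gene, had 77.9 ± 38.6, 87.3 ± 43.2 and 113 ± 65.4 normalized counts. Within RvD6si its counts fell into 196 and 172 in RvD6si 12 and RvD6si 15 and 61.2 to 68.3 in the other 3. RvD6si exceeded vehicle by 0.52 on the log2 scale with an interval from -0.39 to 1.44 (exact permutation p = 0.310), and the coefficient of variation in the model, 47.7%, was the widest of the 9 genes.

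**Figure D3:**
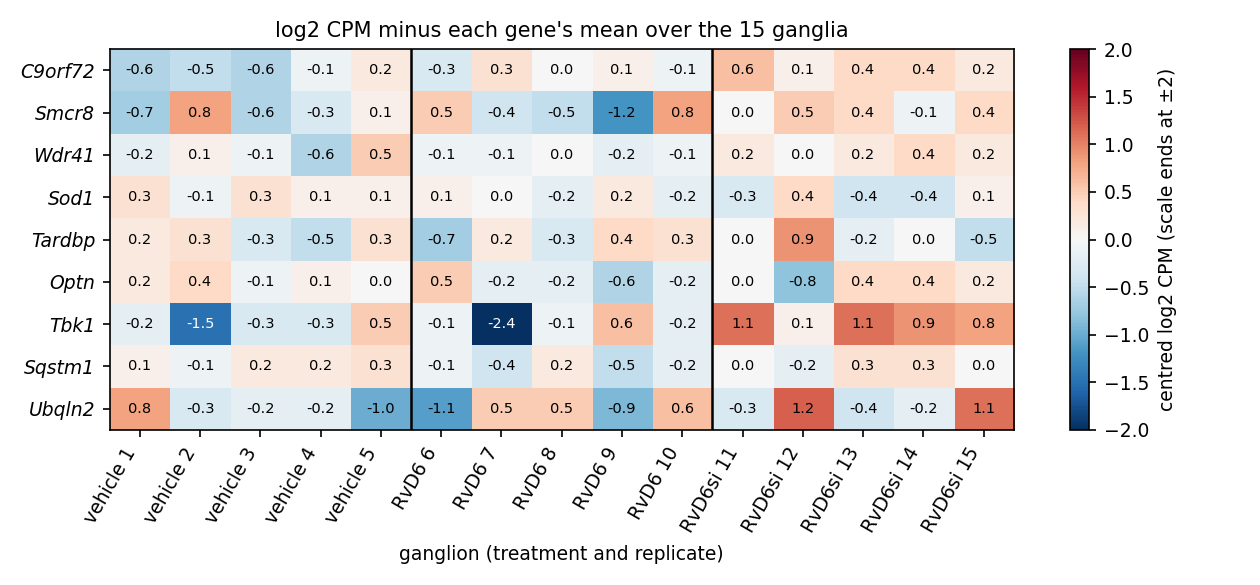
Log2 CPM of each gene minus its mean over the 15 TG (colour and number in each cell), for the 9 genes (rows) and the TG by treatment (columns). RvD6si 12 was the highest TG for Sod1, Tardbp and Ubqln2 and the lowest for Optn, and Tbk1 was lowest in RvD6 7.

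RvD6si 12 stood out across the set. It was the highest of all 15 TG for 3 genes (Sod1, Tardbp and Ubqln2) and the lowest for 1 (Optn), and the lowest RvD6si TG for C9orf72, Wdr41, Tbk1 and Sqstm1. The root mean square of its centred log2 values over the 9 genes was 0.62, close to RvD6 9 (0.62) and vehicle 2 (0.61) and below RvD6 7 (0.83), whose value rested mostly on Tbk1. Without RvD6si 12, C9orf72 in RvD6si against vehicle was 0.68 and Tbk1 1.23, both larger than with it, and 0 of the 9 genes passed the adjusted threshold in edgeR. Without RvD6si 15, the library with the high blood cell markers, these values were 0.66 and 1.09.

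The genes closest to C9orf72 in profile were found by the root mean square difference of centred log2 CPM over the 15 TG, with no test. The nearest of 16566 genes were Slc30a9 (0.16), Tmem255a (0.17), Tmem19 (0.18), Ywhaz (0.19) and Tm9sf2 (0.20), against a median of 0.59 over all genes. Slc30a9, a zinc transporter gene, averaged 1188 ± 169 normalized counts in the vehicle TG, 1368 ± 190 after RvD6 and 1915 ± 343 after RvD6si. Ywhaz, which encodes a 14-3-3 protein, had 4191 ± 564, 4175 ± 336 and 5584 ± 551. These genes were picked for values like those of C9orf72 in the same TG. Their higher means in RvD6si follow from that choice and are no further evidence of a change. Among the other genes of the set Wdr41 was nearest to C9orf72 at 0.31 and Sqstm1 next at 0.42, while Smcr8 was at 0.63, Ubqln2 at 0.80 and Tbk1 at 0.81, all beyond the median of all genes. This distance is not scaled to a gene's spread. A gene of small spread, such as Sqstm1 (18.3% in the model), thus comes out near even if it does not follow C9orf72. One of wide spread, such as Tbk1 (43.1%), comes out far even if it rises in the same TG.

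Genes that work with the set were read from 6 further lists, in which 0 of 70 tested genes passed the adjusted threshold in any comparison by edgeR with all 15 TG. By edgeR with vehicle and RvD6si alone 1 of 69, Hnrnpa2b1, passed (0.982% of all genes). The counts in RvD6si against vehicle that follow are at an unadjusted p below 0.05, and the median log2 fold change of all genes was 0.02. That median differed with annotated length, and the lists were not matched for length. Of 16 tested partners and relatives of the C9orf72 complex, the autophagy initiation kinase subunits, Rab GTPases and folliculin proteins among them, 5 were higher and 1 lower in RvD6si against vehicle at that level (8.69% and 7.30% of all genes), and their median log2 fold change was 0.24. The highest was Fnip2, a folliculin-interacting protein, at 1.97 (SE 0.844) on 8.79 ± 9.36 normalized counts in vehicle and 34.6 ± 35.0 in RvD6si, of which RvD6si 12 alone gave 96.6. The lowest was Atg101, a subunit of the autophagy initiation complex, at -0.40 (SE 0.187), with 678 ± 120 and 515 ± 47.6.

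The ALS genes that encode RNA-binding proteins had the highest list median in RvD6si against vehicle, 0.42 over 9 tested genes, with 8 positive and 3 at an unadjusted p below 0.05, all higher (8.69% of all genes). Hnrnpa2b1, an RNA-binding protein of RNA transport granules, was the highest at 0.52 (SE 0.126, edgeR adjusted p = 0.0637 with all 15 TG and 0.0459 with vehicle and RvD6si alone). Its normalized counts were 834, 750, 774, 761 and 760 in vehicle and 1204, 1078, 1171, 990 and 1120 in RvD6si, so that these groups did not overlap (4.88% of all genes). RvD6 also lay above vehicle throughout, at 890 to 1294 (separate for 3.72% of all genes), and the log2 fold change there was 0.45 (edgeR adjusted p = 0.160).

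Of 20 other tested ALS genes 4 were higher and 1 lower in RvD6si against vehicle at that level (8.69% and 7.30% of all genes), with a median of 0.09. Ccnf, a cyclin of a ubiquitin ligase, was the lowest at -0.70 (SE 1.02) on 23.1 ± 22.6 and 14.7 ± 14.6 counts. In the same list Vcp, the AAA ATPase that extracts ubiquitinated proteins, passed by DESeq2 and not by edgeR, in RvD6si against vehicle (0.45, adjusted p = 0.00324) and against RvD6 (0.45, adjusted p = 0.0128). Its counts were 1317 to 1480 in RvD6si, above all 10 other TG. Groups were separate for 4.88% of all genes in RvD6si against vehicle and for 1.74% in RvD6si against RvD6.

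Of 11 autophagy receptors, their LC3 and GABARAP binding partners and ubiquilins, 3 were higher and 2 lower in RvD6si against vehicle (8.69% and 7.30% of all genes), and 0 higher and 3 lower in RvD6 against vehicle (7.63% and 5.99%), at an unadjusted p below 0.05. Tollip, an adaptor that binds ubiquitin, was the highest at 0.73 (SE 0.203), with 723 ± 122 in vehicle and 1206 ± 335 in RvD6si, and Map1lc3b, an LC3 protein of the autophagosome membrane, was the lowest at -0.40 (SE 0.150). Map1lc3b was at -0.48 in RvD6 against vehicle. Ubqln1, a close relative of Ubqln2, was at 0.54 (SE 0.152, edgeR adjusted p = 0.0907).

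None of the 9 partners of TBK1 signalling had an unadjusted p below 0.05 in RvD6si against vehicle, where 8.69% of all genes were higher and 7.30% lower, and their median was 0.12. So few genes say little at these shares. The highest, Ikbke, the kinase most like TBK1, was at 1.94 (SE 1.49) but was listed at 0 in 4 of the 5 vehicle and 3 of the 5 RvD6si TG, and the lowest, Mavs, an adaptor of RNA sensing, was at -0.28 (SE 0.289). Of 5 partners of SOD1 and p62, 1 was higher and 2 lower (8.69% and 7.30% of all genes), with the extracellular dismutase Sod3 at 0.47 (SE 0.212) and Ccs, the copper chaperone of SOD1, at -0.48 (SE 0.208).

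**Figure D4:**
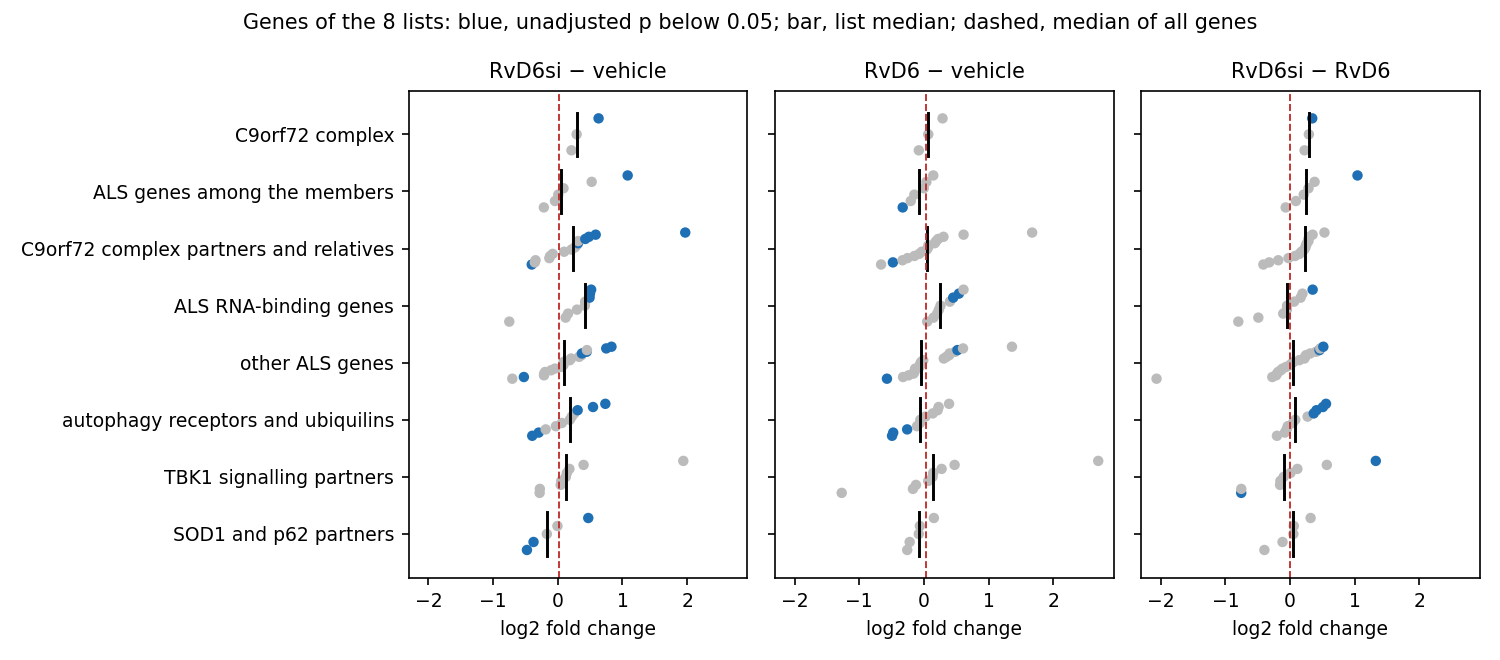
Log2 fold changes (x axis) of the genes of the 8 lists in the 3 comparisons; each dot is a gene, blue at an unadjusted p below 0.05, black bars are list medians and the dashed line is the median of all genes. In RvD6si against vehicle the RNA-binding list had the highest median, 0.42, and in RvD6 against vehicle it was 0.26.

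By DESeq2 with all samples 8 of 72 genes of these 6 lists passed in RvD6si against vehicle (2.83% of all genes, which include many of low counts), all higher, among them Rab1a, Rab11a, Hnrnpa1, Hnrnpa2b1, Vcp, Tollip and Ubqln1. In RvD6 against vehicle 1 of 72 passed, Hnrnpa2b1 (1.14% of all genes), and in RvD6si against RvD6 1 of 72, Vcp (0.569%). The lists were chosen with earlier results of these data known.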

How the data were processed

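The authors reverse transcribed 1 ng of total RNA per TG by an adapted Smart-seq2 protocol, prepared Nextera XT libraries, aligned the reads to GRCm38 with GENCODE release M22 using Rsubread, and counted them with featureCounts (Subread 1.6.5 per the labels, 1.5.0-p1 per the file header). The authors deposited 1 table of raw counts per gene for all 15 TG, without normalization. The command in the header sets no strand, multi-mapping or overlap option, so reads of either strand were counted and ambiguous reads were not. The cDNA was amplified and carried no molecular identifiers, so counts are reads and not molecules.

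Gene symbols came from GENCODE M21 by gene ID (99.7% of 55573 IDs named), and positions from the count table. Fold changes were fitted with edgeR 4.0.16 (TMM, filterByExpr, quasi-likelihood F test) on all 15 TG in 3 groups, with Benjamini-Hochberg adjustment over 16567 genes and a threshold of 0.05. Intervals are 95% and unadjusted. Normalized counts are counts divided by DESeq2 1.42.0 size factors, and were compared by exact two-sided permutation tests over all 252 splits. Log2 CPM used a prior count of 2. DESeq2, other filters and scalings, marker scores as covariates, a gene length correction and leaving out each TG were alternatives. Transcripts were compared with BLAST 2.17.0. Groups came from the labels, and n counts TG taken from the injured side, 5 per group. The labels do not name the animals. As only the right cornea was injured, separate TG of the injured side come from separate animals. The sources do not state beyond this count whether each library is a single TG. The p-values weigh differences between groups against the spread between these samples.

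The 9 genes and the lists were chosen with earlier results of these data known. Named from each list were the genes past the adjusted threshold and those with the highest and lowest fitted change in RvD6si against vehicle, and the 5 genes nearest to C9orf72. Some genes that this rule names are not reported here. Vcp and Ubqln1, the genes called by DESeq2 alone and the motifs were named after their values were seen.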

Additional observations from a re-analysis of the deposited data

How the results depend on the processing

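With 25 alternatives per comparison, leaving out 1 TG at a time gave 0 of the 9 genes past the adjusted threshold in all 3 comparisons. In RvD6si against vehicle the count of genes called, 0 by edgeR, was 1 with DESeq2 on all samples, 2 with DESeq2 on those groups and 1 with at least 10 counts in every sample, and it stayed at 0 in the other alternatives and in the other comparisons. The count of list genes called, 0 by edgeR, was 8 with DESeq2 on all samples, 8 with DESeq2 on those groups and 1 with edgeR on those groups in RvD6si against vehicle, 1 and 2 by DESeq2 in RvD6 against vehicle, and 1 and 1 in RvD6si against RvD6. The cause of these shifts was not tested.

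Of the fold changes, 23 changed sign in alternatives other than leaving out a TG, and none of them was past the threshold. In RvD6si against vehicle, Tardbp was -0.063 and Optn -0.066 with the length trend removed, Optn -0.041 and Sqstm1 0.0075 with the muscle score, and Optn -0.017 with the neuron score. In RvD6 against vehicle, Smcr8 was -0.050 with the length trend removed, Wdr41 0.075, Tardbp 0.074 and Tbk1 -1.05 with the muscle score, and Wdr41 0.14, Optn 0.10, Sqstm1 0.0067 and Ubqln2 -0.094 with the neuron score. Tardbp was there 0.014 with DESeq2 on all samples, 0.0080 with DESeq2 on those groups, 0.013 with RLE normalization and 0.036 with at least 10 counts in every sample. In RvD6si against RvD6, Smcr8 was -0.63, Tardbp -0.0048 and Ubqln2 -0.24 with the muscle score, and Sod1 0.14, Optn -0.12 and Sqstm1 -0.061 with the neuron score. As both scores differed between RvD6 and the other groups, values fitted with them for RvD6 cannot separate score from treatment. The same holds for the muscle score in RvD6si against vehicle, where 0 of the 5 muscle markers had a positive log2 fold change. Leaving out 1 TG also changed signs. In RvD6si against vehicle the values then ran from -0.20 to 0.21 for Tardbp, -0.084 to 0.17 for Optn and -0.11 to 0.029 for Sqstm1. In RvD6 against vehicle they ran from -0.22 to 0.37 for Smcr8, -0.20 to 0.10 for Wdr41, -0.11 to 0.14 for Tardbp, -0.25 to 0.30 for Tbk1 and -0.029 to 0.48 for Ubqln2. In RvD6si against RvD6 they ran from -0.22 to 0.011 for Sod1 and -0.19 to 0.22 for Tardbp. C9orf72, and Tbk1 in the comparisons with RvD6si, kept a positive sign in all alternatives run. No paired analysis was possible because the groups share no replicate numbers.

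Differences of low-count genes such as Smcr8, Ubqln2 and Tbk1 were limited by the spread between TG, with intervals of the log2 fold change wider than 1 in each comparison. Intervals cover these samples, and 5 TG per group cannot give an exact permutation p below 0.00794.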
